A study of Mus musculus with 9 samples.

Results

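The 47 genes described here lie around Gast, the mouse gastrin gene, on chromosome 11. They were taken by name from Stard3 on the Erbb2 side to Tmem106a beyond Brca1, with 14 before Gast and 33 after it in RefSeq gene order. Every array probe set assigned to a member and to no other gene was used. The array gave such probe sets for 44 members (88 probe sets), of 18193 genes with a probe set of their own. Ormdl3, Eif1 and Fkbp10 had none. Of the 88 probe sets, 66 were tested, and these came from 42 members.

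The arrays measured RNA of colonic mucosa from male C57BL/6 mice aged 6 weeks. GasKO mice lack the gastrin gene (Gas-/-), hGAS mice carry the transgene of that name, a human gastrin gene, and WT mice are wild type, with 3 arrays for each genotype. The labels do not give the promoter that drives hGAS, nor whether hGAS mice keep both mouse Gast alleles. They also do not give the strain of the embryonic stem cells behind the GasKO allele or the number of backcrosses. No label states that a genotype's arrays were from different animals. The p-values therefore describe only how far these arrays scatter, and 3 arrays a genotype limit the precision.

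Gastrin is a peptide hormone made mainly by G cells of the stomach, and its precursor progastrin can reach the colon in the blood. A knockout allele is usually made in embryonic stem cells of a donor strain. After crossing to another strain, a stretch of donor chromosome can stay beside the target, the so-called passenger DNA. Genes in that stretch can differ in level, and array probes can lose signal where the donor sequence differs from the probe. In this design, effects of such DNA and effects of gastrin loss cannot be told apart, because both would lie in the same 3 arrays. The labels do not describe hGAS mice as carrying the GasKO allele, and their arrays are given beside both.

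The neighbourhood is crowded and mixed. RefSeq lists 156 protein-coding genes from Stard3 to Tmem106a, and 65 lie between the members Smarce1 and Eif1. Eif1 stands just before Gast and Hap1 just after it, and Smarce1 is the last member before Gast with a tested probe set. Most of those 65 are keratin and keratin-associated genes. The members include transcription and chromatin factors, metabolic enzymes, junction proteins, and proteasome and autophagy proteins.

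The arrays had log2 medians of 4.12 to 4.15, and arrays of the same genotype correlated at 0.992 to 0.996 across probe sets. Markers of colonic epithelium were high on every array, with mean log2 values of 12.9 on each GasKO array, 12.9 to 13.0 on hGAS arrays and 12.7 to 12.9 on WT arrays. None of the 12 was near background, and 2 of them rose in GasKO mucosa against WT (Epcam by 0.35 and Krt18 by 0.26).

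Gast itself was at background in this tissue. Its single probe set averaged 2.08 ± 0.08 in GasKO arrays, 1.95 ± 0.01 in hGAS arrays and 1.96 ± 0.02 in WT arrays (log2, SD, n = 3 each). The probe set therefore does not check the genotype labels.

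In GasKO mucosa against WT, a few members changed, and their share was near that of all probe sets. Of the 66 tested probe sets, 9 were called, where called means an adjusted p under 0.05 in limma's test over 23136 probe sets. That is 13.6%, beside 11.3% of all probe sets tested. They came from 7 genes, with 4 probe sets higher (6.06%, beside 6.03% of all) and 5 lower (7.58%, beside 5.31% of all). Those that rose belong to Ikzf3, Ezh1, Cnp and Smarce1, and those that fell belong to Tns4 (both of its tested probe sets), Smarce1, Mlx and Becn1. Only Ikzf3 and a Tns4 probe set changed at least 2-fold, which is 3.03% of the members' probe sets beside 2.34% of all. GasKO and WT arrays did not overlap for 23 probe sets (34.8%, beside 30.8% of all). The members' median log2 change was 0.02, and that of all probe sets 0.01. With any of 4 single arrays left out, both the members' count and the share of all probe sets were lower. Without GasKO replicate 1, 4 were called (7.24% of all probe sets were), without GasKO replicate 2, 5 (9.2% of all), without GasKO replicate 3, 4 (7.56% of all), and without WT replicate 2, 5 (8.18% of all).

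By side, beside the 11.3% of all probe sets, 5 of 17 tested probe sets before Gast were called (29.4%), from 3 of 12 genes: Ikzf3, Tns4 and Smarce1. These include the Ikzf3 probe set, which passed the filter on low values only through GasKO arrays, and opposite calls of Smarce1. After Gast, 4 of 49 were called (8.16%), from 4 of 30 genes: Cnp, Mlx, Ezh1 and Becn1. The difference between the sides was not tested.

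**Figure D1:**
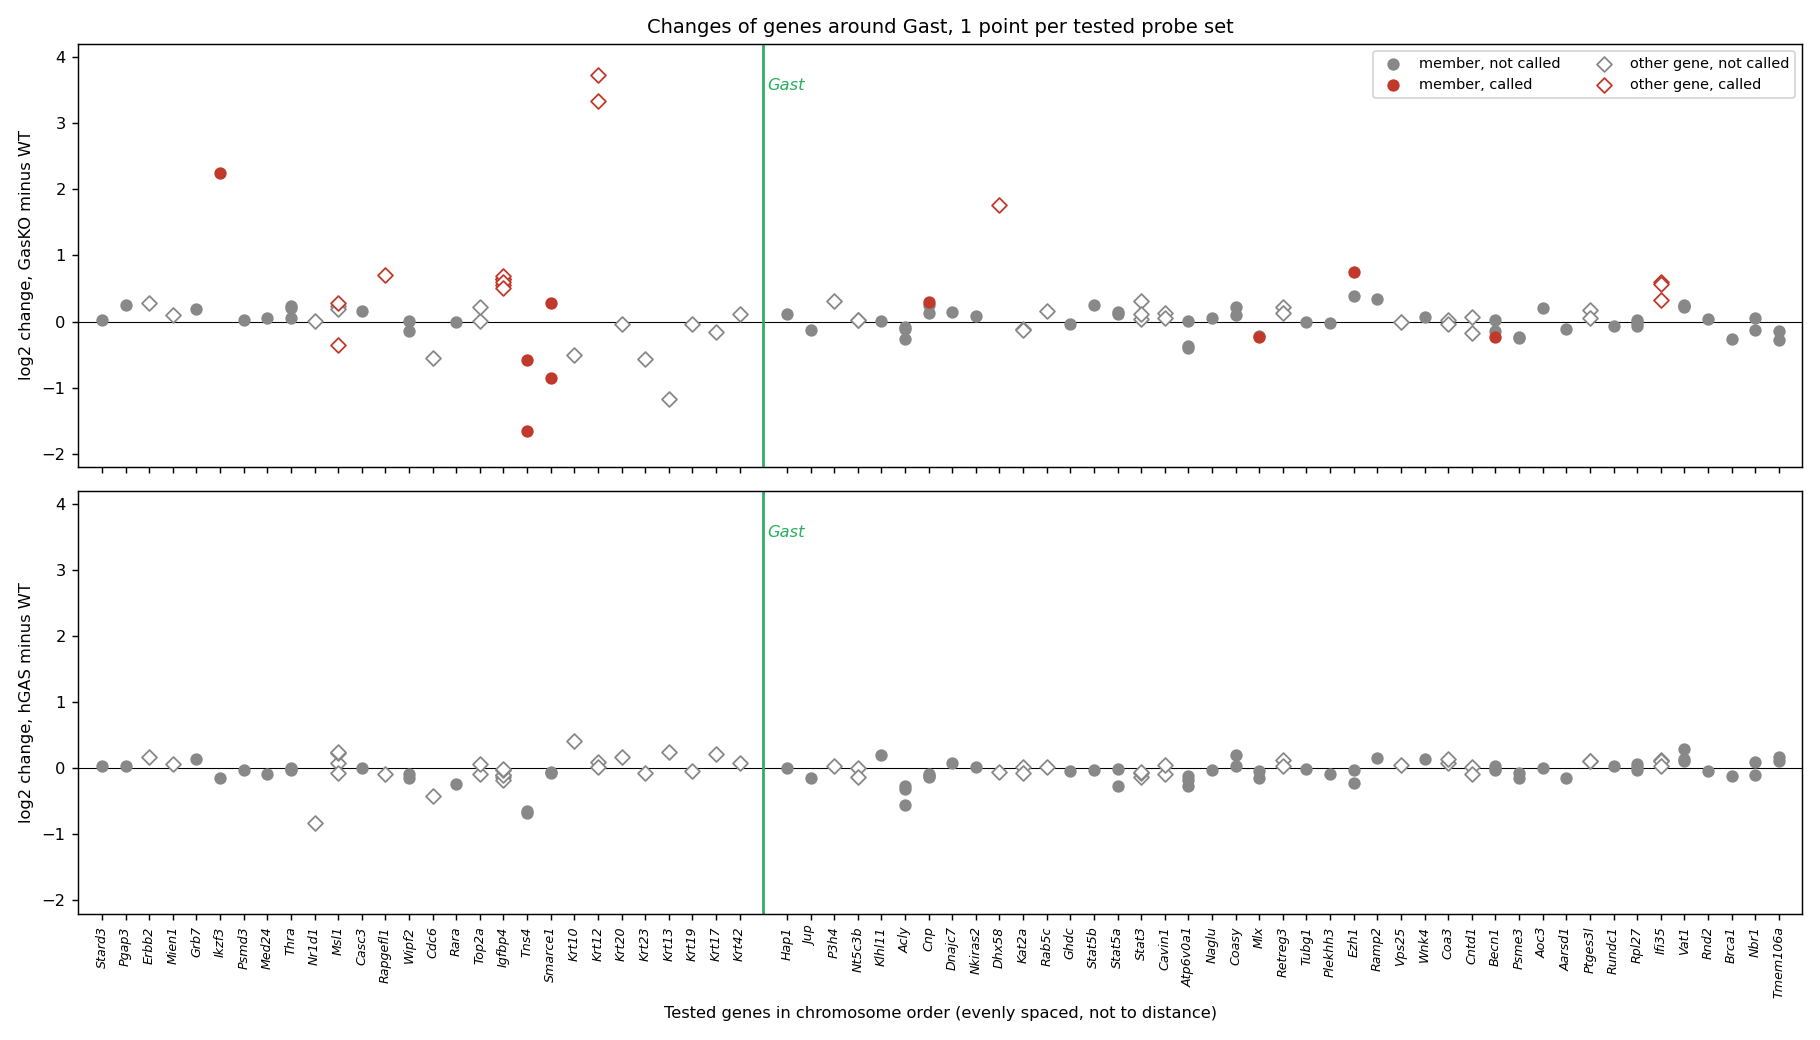
The log2 change of each tested probe set (y axis) for members (circles) and the genes between them (diamonds), in chromosome order and evenly spaced (x axis), for GasKO against WT (upper panel) and hGAS against WT (lower panel), with called probe sets in red and Gast as a green line. Among members, the farthest points in the upper panel are Ikzf3 at 2.24 and Tns4 at -1.65, both before Gast, and no member was called in the lower panel.

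Of 15 tested probe sets of chromatin and transcription factors, 5 were called in GasKO against WT, beside 11.3% of all probe sets. They came from Ikzf3, Smarce1 (in opposite directions), Ezh1 and Mlx. Whether these factors differ from other members was not tested. Ikzf3 encodes Aiolos, a zinc finger transcription factor of lymphocytes. Its tested probe set (1436649_at) read 5.49, 4.44 and 4.87 in GasKO arrays, against 2.45, 2.73 and 2.44 in hGAS arrays and 2.98, 2.91 and 2.19 in WT arrays. Every GasKO array was above every other array, and the other 6 arrays were near background. The log2 change was 2.24 (SE 0.27, adjusted p = 0.000681) against WT and 2.39 (adjusted p = 0.000375) against hGAS. This probe set passed the filter on low values only through its GasKO arrays. Without it, 8 of the members' 65 probe sets were called (12.3%, beside 11.3% of all). Both other Ikzf3 probe sets stayed at background on every array.

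Some markers of immune cells were higher on GasKO arrays, as Ikzf3 was. The mean log2 value of 7 B cell markers was 5.03 to 5.70 in GasKO arrays, 3.29 to 3.70 in hGAS arrays and 4.37 to 4.82 in WT arrays. Of the 5 that were tested, Ms4a1, Cd79a and Cr2 rose in GasKO against WT. Cd79b (0.99, adjusted p = 0.0672) and Fcmr (0.26, adjusted p = 0.517) were not called. In hGAS against WT, Cd79a (-1.76, adjusted p = 0.0396) and Fcmr (-2.30, adjusted p = 0.00355) were lower. Ikzf3 was near background in both hGAS and WT arrays (difference -0.15, adjusted p = 0.866). Whether it follows these markers could therefore not be read there. Averaged over all arrays, Cr2 was near background, as were Pax5 and Blk. Plasma cell markers averaged 8.91 to 9.10 in GasKO arrays, 8.57 to 8.90 in hGAS arrays and 7.84 to 8.45 in WT arrays, with 4 of 7 higher and 1 lower in GasKO than in WT. T cell markers averaged 3.60 to 4.02 in GasKO arrays, 3.46 to 3.51 in hGAS arrays and 3.47 to 3.53 in WT arrays, and 5 of 6 were near background. Of 7 tested myeloid markers, 4 rose, beside 6.03% of all probe sets called higher. Their part in the Ikzf3 result was not tested. In bulk mucosa, more cells of a type and more RNA per cell cannot be told apart.

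Smarce1 encodes BAF57, a subunit of the BAF chromatin remodelling complex, and is the last tested member before Gast. Its probe set 1422675_at read 8.72, 8.55 and 8.64 in GasKO arrays, against 9.53, 9.32 and 9.42 in hGAS arrays and 9.48, 9.46 and 9.54 in WT arrays. The GasKO arrays were below all 6 others, and the hGAS and WT arrays overlapped. It fell by 0.86 on the log2 scale against WT (SE 0.07, adjusted p = 3.58e-05) and by 0.79 against hGAS (adjusted p = 5.14e-05).

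The other tested Smarce1 probe set, 1422676_at, went the opposite way. It read 9.01, 9.01 and 9.06 in GasKO arrays, against 8.80, 8.59 and 8.68 in hGAS arrays and 8.86, 8.67 and 8.70 in WT arrays. The GasKO arrays were again apart from the others, this time above them. The log2 change was 0.28 against WT (SE 0.07, adjusted p = 0.0344) and 0.33 against hGAS (adjusted p = 0.0137). Against WT, the adjusted p was between 0.0531 and 0.113 without any 1 of the GasKO replicates, WT replicate 2, WT replicate 3 or hGAS replicate 3. Against hGAS it was 0.0551 without GasKO replicate 3.

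The direction of Smarce1 thus depended on the probe set read. Other genes of the BAF complex gave no call against WT among 10 tested.

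Ezh1, a histone H3 lysine 27 methyltransferase of polycomb repressive complexes, rose. Its probe set 1449023_a_at read 8.81, 8.58 and 8.66 in GasKO arrays, against 7.75, 8.07 and 7.94 in hGAS arrays and 7.82, 7.86 and 8.15 in WT arrays. All GasKO arrays were above all others. The log2 change was 0.74 against WT (SE 0.11, adjusted p = 0.00251) and 0.76 against hGAS (adjusted p = 0.0018).

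The dimmer Ezh1 probe set, 1418290_a_at, read 6.50, 6.12 and 5.98 in GasKO arrays, against 5.73, 5.50 and 5.55 in hGAS arrays and 5.82, 5.82 and 5.80 in WT arrays. Its groups were also apart, with a log2 difference of 0.61 against hGAS (adjusted p = 0.0123) and of 0.39 against WT, which was not called (adjusted p = 0.0897). In the polycomb list, 2 of 8 tested genes rose against WT and none fell: Jarid2 by 0.39 (adjusted p = 0.0295) and Rbbp4 by 0.19 (adjusted p = 0.0317). Of all probe sets, 6.03% were called higher.

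Mlx is the dimerisation partner of the glucose-sensing MondoA and ChREBP factors. Its probe set 1425930_a_at read 9.39, 9.40 and 9.40 in GasKO arrays, against 9.54, 9.45 and 9.49 in hGAS arrays and 9.64, 9.74 and 9.52 in WT arrays. GasKO arrays were below all others, and hGAS and WT overlapped. It fell by 0.24 against WT (SE 0.06, adjusted p = 0.034), and the difference from hGAS was -0.10 (adjusted p = 0.319). The other Mlx probe set gave -0.21 against WT (adjusted p = 0.0668). The Mlx call was lost, with adjusted p between 0.0526 and 0.101, without any 1 of the GasKO replicates, WT replicate 1, WT replicate 2 or hGAS replicate 3.

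The remaining 10 tested probe sets of chromatin and transcription factors were not called against WT, and their log2 changes lay between -0.21 and 0.39. They include the thyroid hormone receptor Thra (0.05 to 0.23 over 3 probe sets), the retinoic acid receptor Rara (0.00), the Mediator subunit Med24 (0.05), and the cytokine-activated factors Stat5b (0.25, adjusted p = 0.116) and Stat5a (0.11 and 0.14). Stat5a and Stat5b are close paralogues, so their signals may be shared. Genes known as STAT5 targets rose in 3 of 10 cases against WT, beside 6.03% of all probe sets called higher. They were Pim1 by 0.93 (adjusted p = 0.00397), Socs3 by 0.67 (adjusted p = 0.0119) and Igf1 by 0.31. A part of STAT5 in these rises was not tested. None of 5 retinoic acid targets changed. Of 6 thyroid hormone targets, Me1 rose by 1.20 (adjusted p = 0.0161) and Dio1 fell by 0.77 (adjusted p = 0.00169). In the Mediator list, 1 of 12 rose, Med1, by 0.26 (adjusted p = 0.0269).

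Among adhesion and cytoskeleton genes, Tns4 held both calls. It encodes tensin 4, a focal adhesion protein found in few normal epithelia. Its probe set 1444254_at read 8.82, 8.71 and 8.36 in GasKO arrays, against 9.38, 9.93 and 9.49 in hGAS arrays and 10.15, 10.41 and 10.28 in WT arrays. The 3 genotypes did not overlap, with GasKO lowest and WT highest. It fell by 1.65 against WT (SE 0.16, adjusted p = 0.000123) and by 0.97 against hGAS (adjusted p = 0.00294), and the hGAS minus WT difference was -0.68 (adjusted p = 0.0886).

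The other Tns4 probe set, 1439347_at, read 9.18, 9.16 and 8.89 in GasKO arrays, against 8.84, 9.29 and 8.91 in hGAS arrays and 9.50, 9.83 and 9.63 in WT arrays. Here GasKO and hGAS overlapped, and both were below WT. It fell by 0.58 in GasKO against WT (SE 0.13, adjusted p = 0.0232), while GasKO minus hGAS was 0.06 (adjusted p = 0.796) and hGAS minus WT was -0.64 (adjusted p = 0.0706). The call against WT was lost without WT replicate 2 or 3 or GasKO replicate 1 or 3, with adjusted p between 0.0513 and 0.0877. Both Tns4 probe sets read GasKO below WT, but only 1444254_at placed GasKO below hGAS.

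**Figure D2:**
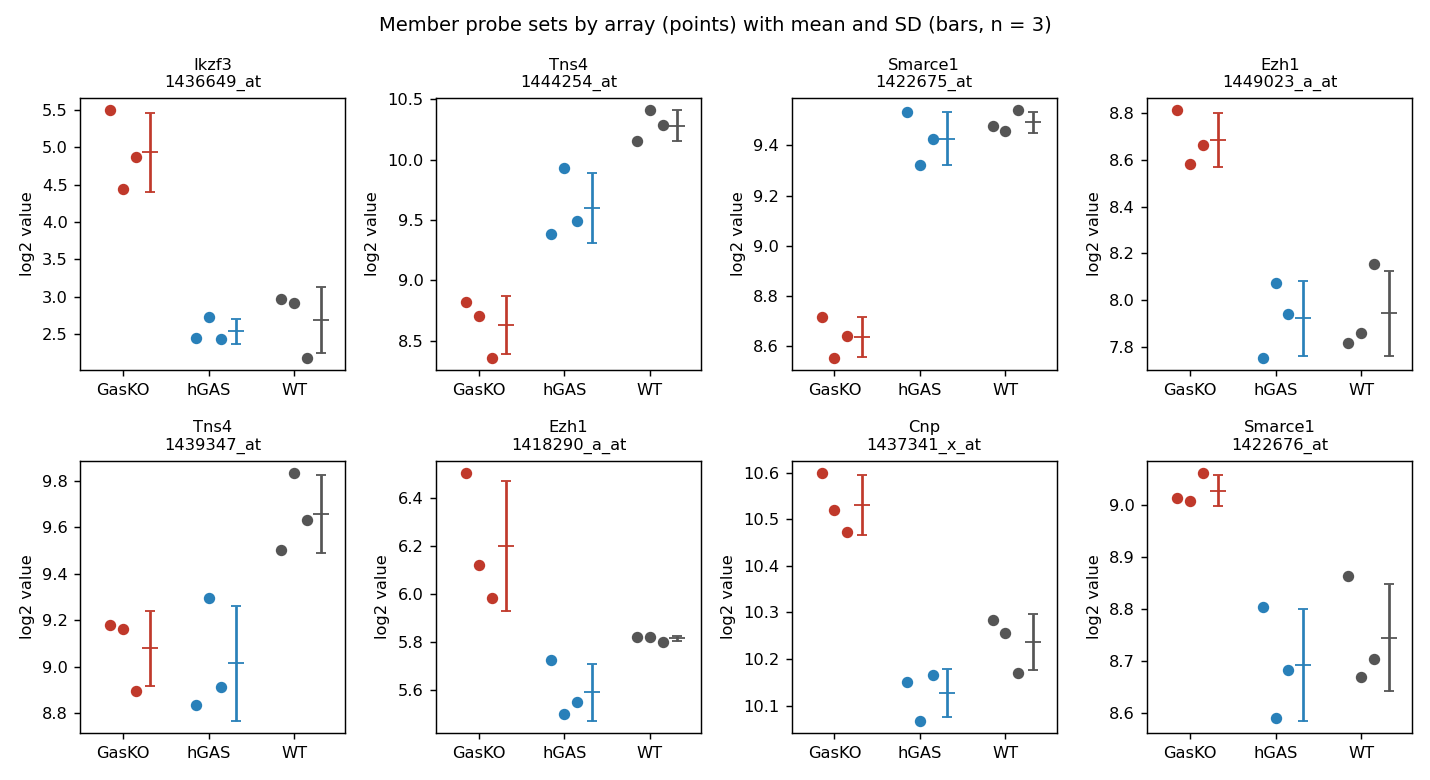
The log2 value on each array (y axis, points) of the 8 member probe sets with the largest changes against WT among those called against WT or hGAS, with the mean and SD of 3 arrays beside them and the genotypes GasKO, hGAS and WT on the x axis. The Smarce1 panels run in opposite directions, and in Tns4 the hGAS arrays lie between GasKO and WT for 1444254_at but level with GasKO for 1439347_at. The y axes differ between panels and do not start at 0.

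The other 4 tested probe sets of adhesion and cytoskeleton genes gave log2 changes from -0.14 to 0.04 in GasKO against WT, and none was called. They include Jup (-0.13, adjusted p = 0.356), the plakoglobin of desmosomes and adherens junctions. In the junction list, 1 of 10 genes rose, the desmosomal Pkp1, by 0.59 (adjusted p = 0.02).

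**Figure D3:**
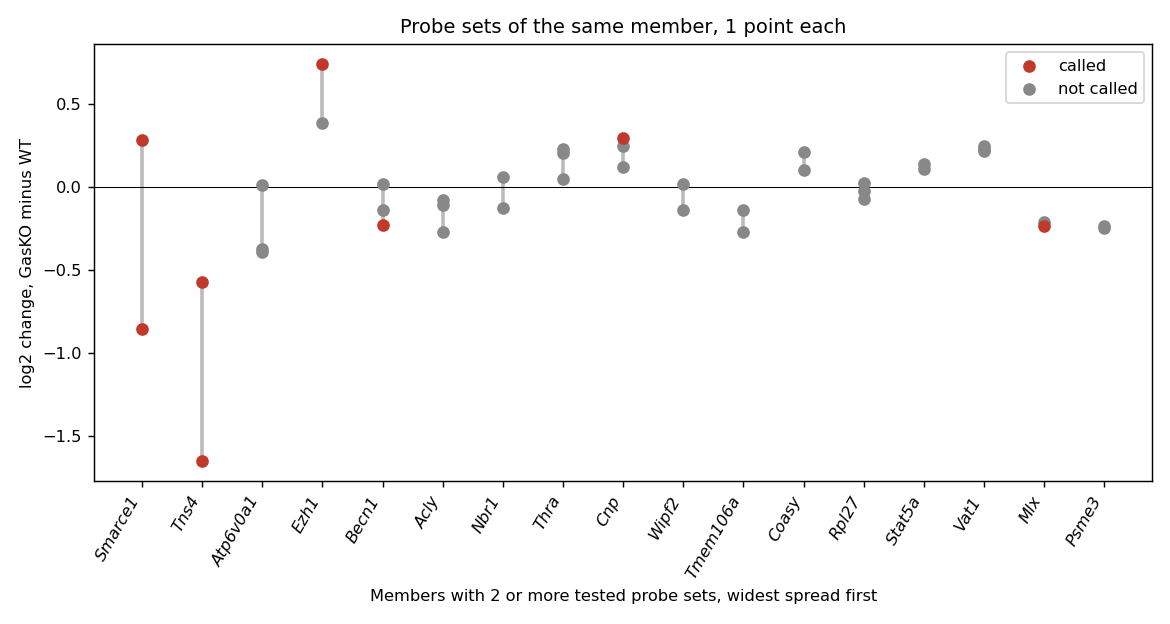
The log2 change in GasKO against WT (y axis) of each probe set of the 17 members with at least 2 tested probe sets (x axis, widest spread first), with called probe sets in red. Smarce1 and Tns4 have spreads of 1.14 and 1.08, and the median spread over the 17 members is 0.17.

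Disagreement of this size between probe sets of a gene was uncommon on the array. Of 5116 genes with at least 2 tested probe sets, 2.74% had probe sets that differed by at least 1 in log2 change, and 2 of 17 members did, Smarce1 and Tns4. Probe sets called in opposite directions were found in 0.665% of those genes and in 1 member, Smarce1. The median spread was 0.17 in members and 0.16 over those genes. Tns4 and Smarce1 follow each other among the tested genes. Probe sequences were not used here, so a sequence difference under a probe, another transcript end and other splicing cannot be told apart.

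Among metabolic genes, Cnp rose. Cnp encodes a cyclic nucleotide phosphodiesterase best known from myelin. Its probe set 1437341_x_at read 10.60, 10.52 and 10.47 in GasKO arrays, against 10.15, 10.07 and 10.16 in hGAS arrays and 10.28, 10.26 and 10.17 in WT arrays. Every GasKO array was above every other array. The log2 change was 0.29 against WT (SE 0.05, adjusted p = 0.00651) and 0.40 against hGAS (adjusted p = 0.000852).

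Another Cnp probe set, 1418980_a_at, read 7.28, 7.12 and 7.05 in GasKO arrays, against 6.80, 6.75 and 6.92 in hGAS arrays and 7.02, 6.82 and 6.87 in WT arrays. GasKO was above both, by 0.33 against hGAS (adjusted p = 0.0359) and by 0.25 against WT, which was not called (adjusted p = 0.111). The call against hGAS was lost without GasKO replicate 1 or 2 or hGAS replicate 1 or 2, with adjusted p between 0.0693 and 0.12. The Cnp probe set 1449296_a_at gave 0.12 against WT (adjusted p = 0.565). Enteric glia are a possible source of Cnp. Markers of enteric glia and neurons gave no call among 4 tested. Of these, the glial Sox10 averaged only 4.11 to 4.19 by genotype, and the glial S100b and Gfap were near background. Glia as a source of Cnp was therefore not tested.

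Acly, ATP citrate lyase, makes the acetyl-CoA used for fatty acid and sterol synthesis. Its probe set 1439459_x_at read 11.82, 11.90 and 11.89 in GasKO arrays, against 11.67, 11.68 and 11.70 in hGAS arrays and 11.96, 11.84 and 12.05 in WT arrays. The hGAS arrays were lowest, and GasKO and WT overlapped. GasKO was higher than hGAS by 0.19 (adjusted p = 0.0446), and GasKO minus WT was -0.08 (adjusted p = 0.401). That call against hGAS was lost without any 1 of the GasKO or hGAS replicates or WT replicate 1, with adjusted p between 0.0648 and 0.134.

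The probe set 1425326_at of Acly read 10.04, 10.18 and 10.14 in GasKO arrays, against 9.90, 9.62 and 9.97 in hGAS arrays and 10.30, 10.27 and 10.60 in WT arrays. The genotypes did not overlap, with hGAS lowest. Its hGAS minus WT difference was -0.56 (adjusted p = 0.0585), and GasKO minus WT was -0.27 (adjusted p = 0.157). In the fatty acid synthesis list of 14 genes, Me1 rose by 1.20 and Scd1 by 0.85 in GasKO against WT, and Elovl6 fell by 0.47 (adjusted p = 0.0114). The mean log2 value of 5 adipocyte markers was 6.98 to 7.67 in GasKO arrays, 6.26 to 7.21 in hGAS arrays and 5.64 to 6.79 in WT arrays. None of the 4 tested was called, with Adipoq at 2.04 (adjusted p = 0.15), Cidec at 1.20 and Fabp4 at 0.79 against WT. Their part in these results was not tested.

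The rest of the metabolic members gave no call. They include the cholesterol-binding Stard3 (0.02 against WT), the coenzyme A synthase Coasy (0.10 and 0.21), the GPI-anchor remodelling protein Pgap3 (0.25) and the vascular amine oxidase Aoc3 (0.20). Of 7 coenzyme A synthesis genes tested, none was called against WT, and Ppcs was lower in GasKO than in hGAS, by -0.71 on the log2 scale (adjusted p = 0.00275). Ormdl3, a regulator of sphingolipid synthesis, could not be read alone, because its probe set is shared with a predicted gene. In the sphingolipid list of 12 genes, 1 rose (Sptlc2 by 0.30, adjusted p = 0.0019) and 3 fell, with Cers2 falling by 0.62 (adjusted p = 0.000285). Of all probe sets, 11.3% were called.

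Becn1 encodes Beclin 1, a core subunit of the lipid kinase complex that starts autophagy. Its probe set 1460320_at read 9.56, 9.55 and 9.44 in GasKO arrays, against 9.74, 9.65 and 9.81 in hGAS arrays and 9.78, 9.82 and 9.66 in WT arrays. GasKO was below both, which overlapped each other. It fell by 0.23 against WT (SE 0.06, adjusted p = 0.0466), and the difference from hGAS was -0.22 (adjusted p = 0.0507). The call against WT was lost without any 1 of the GasKO replicates, WT replicate 1 or 2, or hGAS replicate 1 or 3, with adjusted p between 0.0521 and 0.156. Without hGAS replicate 2 or WT replicate 3, the difference from hGAS was called (adjusted p = 0.044 and 0.0398).

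Both other tested Becn1 probe sets were not called, at -0.14 and 0.02. In the autophagy list, 2 of 18 tested genes fell against WT, Pik3r4 by 0.36 (adjusted p = 0.0297) and Pik3c3 by 0.27 (adjusted p = 0.0344), and none rose. Of all probe sets, 11.3% were called and 5.31% were called lower, so this count is not read as a result about autophagy. Both encode subunits of the Beclin 1 complex, whose other listed subunits or regulators were not called: Atg14 gave 0.24, Uvrag 0.14 and Ambra1 0.03. A shared change of the complex was not tested. The autophagy receptor Nbr1 gave 0.06 and -0.13.

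The other genes of protein and organelle breakdown were not called in GasKO against WT. Psme3, an activator of the proteasome core, gave -0.25 and -0.23 (smallest adjusted p = 0.0632), and the proteasome subunit Psmd3 gave 0.02. None of 21 proteasome genes was called. Atp6v0a1, a subunit of the V-ATPase proton pump, gave 0.01, -0.37 and -0.40 over 3 probe sets, while 2 of 12 V-ATPase genes rose, Atp6v1g1 by 0.50 (adjusted p = 0.000347) and Atp6v1c1 by 0.45 (adjusted p = 0.000431). Klhl11, a ubiquitin ligase adaptor, read 7.40, 7.40 and 7.35 in GasKO arrays, against 7.60, 7.63 and 7.51 in hGAS arrays and 7.37, 7.39 and 7.37 in WT arrays. In Klhl11 the hGAS arrays stood above all others, with GasKO minus hGAS at -0.20 (adjusted p = 0.0516) and hGAS minus WT at 0.21 (adjusted p = 0.155).

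Genes of RNA and protein synthesis varied little. Their 6 tested probe sets changed by -0.11 to 0.16 in GasKO against WT. The ribosomal protein gene Rpl27 gave -0.07, 0.02 and -0.02 over 3 probe sets, and none of 11 large-subunit genes in the list was called. Dnajc7, a co-chaperone, gave 0.14 and Casc3, a core protein of the exon junction complex, 0.16. The homologous recombination gene Brca1 gave -0.26 (adjusted p = 0.322), and the centrosomal Tubg1 gave 0.00. None of 5 homologous recombination genes tested was called. Psmc3ip, a meiotic recombination cofactor, and Klhl10, a testis gene, had no probe set that passed the filter.

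Among signalling genes, Ramp2, the endothelial co-receptor of adrenomedullin, gave the highest value at 0.34 (adjusted p = 0.145). Of 7 endothelial markers, none was called against WT, and Cldn5 was higher in GasKO than in hGAS by 0.81 (adjusted p = 0.0118). Grb7, an adaptor of receptor tyrosine kinases beside Erbb2, gave 0.19, the kinase Wnk4 gave 0.08, and Nkiras2, an inhibitor of NF-kB signalling, gave 0.08. Tmem106a, at the far end, read 7.49, 7.36 and 7.53 in GasKO arrays, against 7.84, 8.03 and 7.68 in hGAS arrays and 7.78, 7.90 and 7.52 in WT arrays for 1425025_at. GasKO was below hGAS without overlap but overlapped WT, with differences of -0.39 (adjusted p = 0.0543) and -0.27 (adjusted p = 0.178).

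The member nearest to Gast with a tested probe set after it was Hap1, which encodes huntingtin-associated protein 1. Hap1 read 4.44, 4.14 and 4.14 in GasKO arrays, against 4.14, 4.11 and 4.14 in hGAS arrays and 4.14, 4.12 and 4.10 in WT arrays, so all but the first GasKO array were alike. These values stand just above the filter at log2 4 and level with the array medians, so Hap1 was near background. Its log2 change against WT was 0.12 (95% interval -0.09 to 0.32, adjusted p = 0.468). Among tested members, Jup, Klhl11, Acly, Cnp, Dnajc7 and Nkiras2 follow in order, of which Cnp alone was called against WT.

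In all, 57 member probe sets were not called in GasKO against WT. Their log2 changes lay between -0.40 and 0.39, and the bounds of their 95% intervals between -0.78 and 0.67. For 49 of them the interval stayed within 0.5 on either side. Changes of 2-fold in these array values therefore lay outside the unadjusted interval of each of the 57. Some of these probe sets, such as those of Hap1 and Stat5a, read close to the filter at log2 4. For those, the interval of the values does not bound a change in RNA. The 22 probe sets that were not tested, from 13 members, never read above 4.15.

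Against hGAS, 9 of the 66 probe sets differed in GasKO (13.6%), beside 14.9% of all probe sets tested. They came from 6 genes, with 7 higher (7.8% of all probe sets were) and 2 lower (7.09% of all were). The higher ones were Ikzf3, both Ezh1 probe sets, Cnp 1437341_x_at and 1418980_a_at, Acly 1439459_x_at and Smarce1 1422676_at, and the lower ones were Tns4 1444254_at and Smarce1 1422675_at. The comparisons of GasKO with hGAS and with WT share the GasKO arrays, so they are given side by side only. Over the GasKO arrays against all 6 others, 11 of 66 were called (16.7%), beside 15.9% of all. Without GasKO replicate 1, 6 of these were called, and without GasKO replicate 3, 7. With 1 array left out, the share of all probe sets ran from 9.99% to 16.1%.

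Between hGAS and WT, no member was called. The count was 0 of 66, beside 0.761% of all probe sets in limma's test, and 8 had an unadjusted p under 0.05 (12.1%, beside 13.5% of all). Groups did not overlap for 11 of the 66 (16.7%, beside 17% of all). The log2 differences lay between -0.68 and 0.30. The farthest were the Tns4 probe sets at -0.68 and -0.64 and Acly 1425326_at at -0.56. With the replicate number as a block, 4 were called, beside 1.69% of all, and each was lower in hGAS: both Tns4 probe sets (adjusted p = 0.0476 and 0.027) and Acly 1425326_at and 1451666_at (adjusted p = 0.0318 and 0.0473). Without WT replicate 2, Acly 1439459_x_at was called (adjusted p = 0.0357), and without hGAS replicate 2, Tns4 1439347_at was (adjusted p = 0.047).

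The genes between the members were also read, because the members are a selection of the interval. Of 108 protein-coding genes that are neither members nor Gast, 74 had a probe set of their own and 29 were tested. In GasKO against WT, 15 of their 50 probe sets were called (30%, beside 11.3% of all), from 6 genes, with 14 higher (6.03% of all probe sets were) and 1 lower (5.31% of all were). Igfbp4 alone gave 6 of the 15, and Krt12 gave 2. The 1 that fell was Msl1 1428871_at (by 0.35, adjusted p = 0.0339), and another Msl1 probe set rose by 0.28 (adjusted p = 0.0298). Msl1 encodes a scaffold of a histone H4 acetyltransferase complex.

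Krt12, a keratin known from corneal epithelium, had the largest rise in the interval. Its probe set 1419230_at read 6.59, 5.36 and 6.25 in GasKO arrays, against 2.49, 2.34 and 2.47 in hGAS arrays and 2.34, 2.37 and 2.32 in WT arrays. The GasKO arrays were far above the rest, which were at background. The log2 change was 3.72 against WT (adjusted p = 1.3e-05), and its other probe set gave 3.34 (adjusted p = 0.000671). Both Krt12 probe sets, like that of Ikzf3, passed the filter only through GasKO arrays.

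Igfbp4, which encodes a secreted binder of insulin-like growth factors and precedes Tns4 among the tested genes, rose on all 6 of its probe sets, by 0.51 to 0.69. Its probe set 1423756_s_at read 11.37, 11.37 and 11.36 in GasKO arrays, against 10.45, 10.57 and 10.61 in hGAS arrays and 10.72, 10.66 and 10.78 in WT arrays. The GasKO arrays were above all others, with a log2 change of 0.64 against WT (adjusted p = 4.53e-05). The full set of Igfbp4 probe sets was chosen for mention after its values were seen.

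The other rises were in Rapgefl1, related to exchange factors of Rap GTPases, in Dhx58, a cytosolic RNA sensor of the interferon response, and in Ifi35, an interferon-induced gene. Rapgefl1 rose by 0.70 (adjusted p = 0.00342) and Dhx58 by 1.77 (adjusted p = 0.0105). Ifi35 rose on 3 probe sets by 0.32 to 0.59. The tested keratin genes closer to Gast than Krt12 (Krt20, Krt23, Krt13, Krt19, Krt17 and Krt42) were not called.

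Read along the chromosome, the called genes closest before Gast were, in order toward it, Igfbp4, Tns4, Smarce1 and Krt12, with Krt10 between the last pair not called. Over the 10 tested genes nearest on each side, 8 of 28 probe sets were called in GasKO against WT, 9 in GasKO against hGAS and 0 in hGAS against WT, beside 11.3%, 14.9% and 0.761% of all probe sets. The 8 include both Krt12 probe sets.

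**Figure D4:**
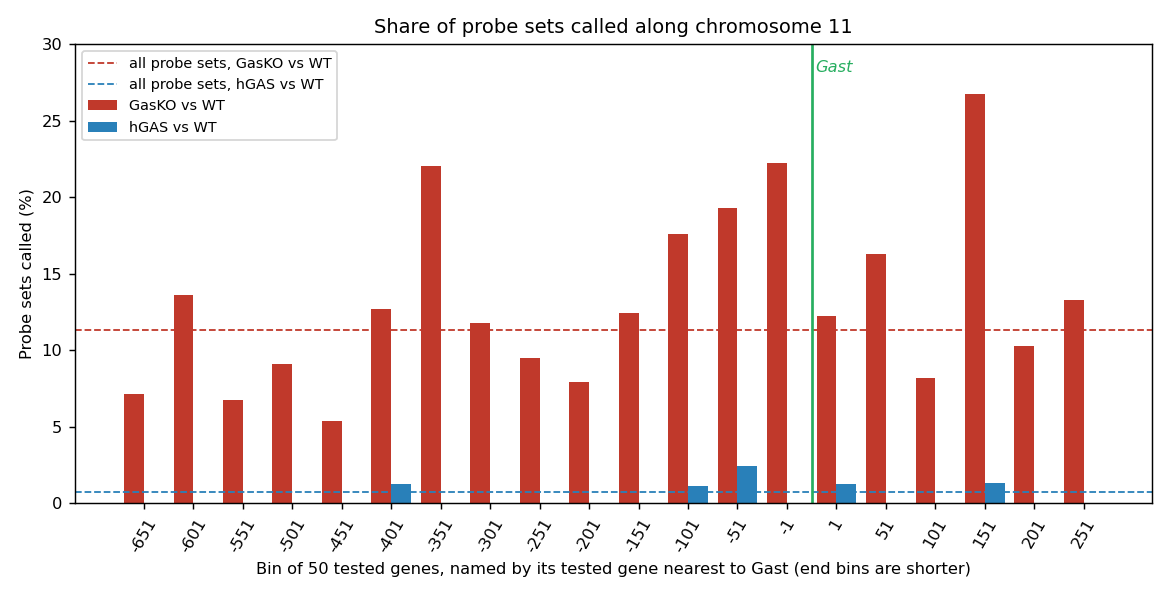
The percent of tested probe sets called (y axis) in GasKO against WT and in hGAS against WT (bars by colour), in consecutive bins of 50 tested genes along chromosome 11 in order from Gast (x axis), with the shares over all probe sets as dashed lines. For GasKO against WT, the nearest bins before Gast stand, outward from it, at 22.2%, 19.3% and 17.6%. The bin just after Gast stands at 12.2%, and the bin 151 to 200 tested genes after it at 26.7%. The bin just before Gast includes the Ikzf3 and Krt12 probe sets, which passed the filter only through GasKO arrays.

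In bins of 50 tested genes, another stretch of chromosome 11 had a higher share of calls than the bin on either side of Gast. The 50 tested genes before Gast, which include 12 members, had 20 of 90 probe sets called (22.2%), the second highest share of 20 bins. These calls include 6 from Igfbp4 alone. They also include the Ikzf3 and both Krt12 probe sets, which passed the filter only through GasKO arrays. The bins 51 to 100 and 101 to 150 tested genes before Gast had 19.3% (rank 4) and 17.6% (rank 5), beside 11.3% of all probe sets. The 50 after Gast, which include 30 members, had 10 of 82 (12.2%), rank 11. A bin 151 to 200 tested genes away reached 26.7%, and the lowest was 5.38%. Chromosome 11 as a whole had 220 of 1627 called (13.5%), rank 3 of 20, and without the members 211 of 1561 (13.5%). Across chromosomes the share ran between 5.51% on chromosome 14 and 19.2% on chromosome 17.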

How the data were processed

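Per the submitters' processing notes, the deposited log2 values were made with GCRMA, version not stated. GCRMA corrects background by probe sequence, normalises by quantiles and summarises each probe set, so a base difference under a probe can lower a value. The authors' scanner files were not used here. Probe sets were named from the platform annotation, and gene order came from RefSeq GRCm38.p6 for neighbours only, since the files name no build.

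Non-control probe sets with at least 3 arrays at a log2 value of 4 were fitted on all 9 arrays with limma 3.58.1 (lmFit, eBayes with trend) in R 4.3.3, with data.table version 1.17.8. Genotype was the only term, with 6 residual and 3.29 prior degrees of freedom. Tests were 2-sided, with Benjamini-Hochberg adjustment over 23136 probe sets. Intervals are 95% and unadjusted. Figures were drawn with matplotlib 3.10.9.

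Same-numbered hGAS and WT arrays deviated together, with correlations of 0.170, 0.113 and 0.193, a hint from the data and not the labels. Blocked values are therefore given for hGAS against WT.

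On simulated GasKO against WT data of 23136 probe sets, 56% of changes of 0.5 on the log2 scale and 98% of changes of 1 were called, with 50 of each. Far fewer probe sets were changed there than were called in the data, which alters the adjusted cut-off. These rates therefore do not carry over to the data.

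The members, gene lists and markers were chosen with earlier results of these data known. Values are given by array for every member probe set called in a pairwise comparison and for the members next to Gast. Tmem106a, Klhl11 and Acly 1425326_at were added after their values were seen. Of genes between members, the 5 largest rises and falls among called probe sets are named. For listed genes, the brightest probe set on average was read. Counts of listed genes called in GasKO against WT stand against 11.3% of all probe sets called, 6.03% higher and 5.31% lower. No list was tested as a set. Alternatives covered filters, normalisation, the model, the replicate block, probe set choice and each array left out.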

Additional observations from a re-analysis of the deposited data

How the results depend on the processing

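No result reversed under any alternative. The calls of Ikzf3, Tns4 1444254_at, Smarce1 1422675_at, Ezh1 1449023_a_at and Cnp 1437341_x_at in GasKO against WT were kept in each of the 17 to 22 settings in which they could be read. Ikzf3 was the one read in 17. It passed the filter only through its GasKO arrays, so it was not read without any 1 of them. How far its call depends on a single GasKO array was therefore not tested. Those of Tns4 1439347_at (16 of 21), Smarce1 1422676_at (14 of 21), Mlx (12 of 21) and Becn1 (10 of 21) were not. For GasKO against WT, 9 member probe sets were called, 4 genes when a gene's probe sets were averaged, and 5 at an adjusted p under 0.01. With 1 array left out, 4 to 10 were called (7.24% to 11.2% of all probe sets were). For GasKO against hGAS, 9 were called, 2 genes when averaged, 5 with only probe sets designed for 1 transcript, and 5 at an adjusted p under 0.01. With 1 array left out, 6 to 12 were (9.32% to 15.4% of all). For GasKO against the other 6 arrays, 11 were called, 6 with 1 probe set per gene, 5 when averaged, 5 with only probe sets for 1 transcript, and 6 at an adjusted p under 0.01. With 1 array left out, 6 to 11 were (9.99% to 16.1% of all). For hGAS against WT, 0 were called, 3 with a filter at log2 6, 1 after another quantile normalisation, 1 with robust hyperparameters, and 4 at an adjusted p under 0.1. With 1 array left out, 0 or 1 was (0.16% to 0.558% of all). Counts under the other settings stand here without the share of all features called. They are therefore not read as results about the members. Averaging probe sets and keeping 1 of them each leave fewer features to call. With the replicate number as a block, hGAS against WT gave 4 calls. Same-numbered arrays of GasKO and WT correlated at 0.125, 0.010 and 0.142, and those of GasKO and hGAS at 0.085, 0.145 and 0.189, so, with some values under 0.1, their numbers were not taken as pairs, although 9 of 9 arrays correlated best with their own number in another genotype. There the block lost Becn1 against WT (adjusted p = 0.0628), added Tmem106a 1425025_at against hGAS (adjusted p = 0.0486) and changed no other member call. The causes of the other shifts were not tested. Small changes of probe sets near background are limited by the signal over background, and 3 arrays a genotype limit all tests.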
